A study of Mus musculus with 12 samples.

Results

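The genes described here are 10 components and direct outputs of the circadian clock, chosen by name: Per1, Per2, Per3, Cry1, Cry2, Nr1d1, Nr1d2, Dbp, Tef and Bhlhe40. All 10 had counting windows in the deposited files, on 14 of the 44308 RefSeq transcripts. Of the 10, 7 were among the 6429 genes for which the authors deposited comparisons of RNA polymerase II (Pol II) signal. Per3, Cry1 and Cry2 were not among them, the authors' gene filter is not given in the sources used here, and no value is reported for these 3 genes.

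The circadian clock is a feedback loop of transcription. The activators CLOCK (or NPAS2) and BMAL1 bind E-box sequences and switch on the Per, Cry, Nr1d and Bhlhe40 genes and outputs such as Dbp and Tef, and the PER and CRY proteins later repress the activators. REV-ERBα and REV-ERBβ, encoded by Nr1d1 and Nr1d2, repress transcription of the BMAL1 gene Arntl, while DBP and TEF activate genes through D-box sequences. In the small intestine the clock is known for daily rhythms of nutrient transporters and of cell division. Because transcription of these genes changes with the hour, the time at which tissue was taken matters for their level. The labels used here give no time of day.

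Pol II was measured by chromatin immunoprecipitation and sequencing (ChIP-seq) in mouse duodenal epithelium with an antibody to Pol II, with 3 libraries in each of 3 groups and 1 input library per group. WT villus and WT crypt came from wild-type mice, littermate controls by the design text, that received vehicle alone (10% ethanol and 90% corn oil). The third group was villus labelled Hnf4{alpha}{gamma} DKO, a double knockout of the transcription factors HNF4A and HNF4G, from mice given tamoxifen at 50 mg/kg/day for 2 days and killed 1 day after the last dose. Epithelium was released with 3 mM EDTA for 35 minutes from WT tissue and 25 minutes from mutant tissue, and a 70 µm filter held back the villi. Genotype, tamoxifen and EDTA time varied together between the villus groups, so their parts cannot be told apart. The driver of the deletion, the age of the mice beyond adult cells, any pooling of mice, and whether libraries came from separate mice are not given in the sources used here. The p-values therefore cannot be read as measuring the spread between mice, and they rest on the errors of the authors' fit to these libraries.

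The counts per library carry no column names and could be matched to no sample. Values are given as the authors' deposited log2 fold changes with their standard errors (after ±) and DESeq2 adjusted p-values over 6429 genes. A gene was called at an adjusted p under 0.05. The mean signal of each group was rebuilt from the deposited mean over libraries and the 2 fold changes, assuming 3 libraries per group and unshrunken fold changes. A rebuilt mean, in normalised counts, has no error of its own and is compared between groups of 1 gene, never between genes of different length. Villus and crypt were as labelled by their markers. Of 10 enterocyte markers 9 were in the tables, and the authors' deposited table called all 9 higher in WT villus than crypt. Of 10 markers of crypt stem and dividing cells 2 were in the tables, both called higher in crypt. None of 8 mesenchyme, endothelium, nerve and muscle markers was in the tables. At the targeted genes themselves Pol II was higher in the villi labelled DKO, where the authors' deposited table gave WT relative to DKO as -0.54 ± 0.14 at Hnf4a and -1.45 ± 0.22 at Hnf4g on the log2 scale (DESeq2 adjusted p 0.000484 and 7.81e-10). The deleted part is not given in the labels, so this is no check of the deletion, and each direction between the genotypes rests on the label.

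In the comparison of WT villus with crypt, which surveys Pol II along the crypt-villus axis, the authors' deposited table called 4 of the 7 clock genes: Nr1d1, Dbp, Nr1d2 and Bhlhe40. All 4 had more Pol II in villus, and Nr1d1 and Dbp changed most. Of all 6429 genes, 37.4% were called in this comparison with 18.6% higher and 18.8% lower in villus. In the comparison of WT villus with labelled-DKO villus, which asks where Pol II depends on HNF4, the deposited table called 6 of the 7, against 51.9% of all genes. Nr1d1, Dbp, Nr1d2 and Tef had more Pol II in WT villus, as had 22.4% of all genes. Per1 and Bhlhe40 had more in labelled-DKO villus, as had 29.5%. Centring on the median gene turned this balance over all genes to 26.6% higher and 22.1% lower in WT villus. Per2 passed in neither comparison. With 7 genes chosen by name these counts carry no test of the list. Over the 7 genes the median on the log2 scale was 0.22 for villus over crypt, against -0.04 for all genes, and 0.31 for WT over labelled-DKO villus, against -0.08. The 2 comparisons share the WT villus libraries, so a high or low value in WT villus moves both. The clock calls in both tables and in labelled-DKO villus against crypt were the same after all fold changes were centred on the median gene.

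**Figure D1:**
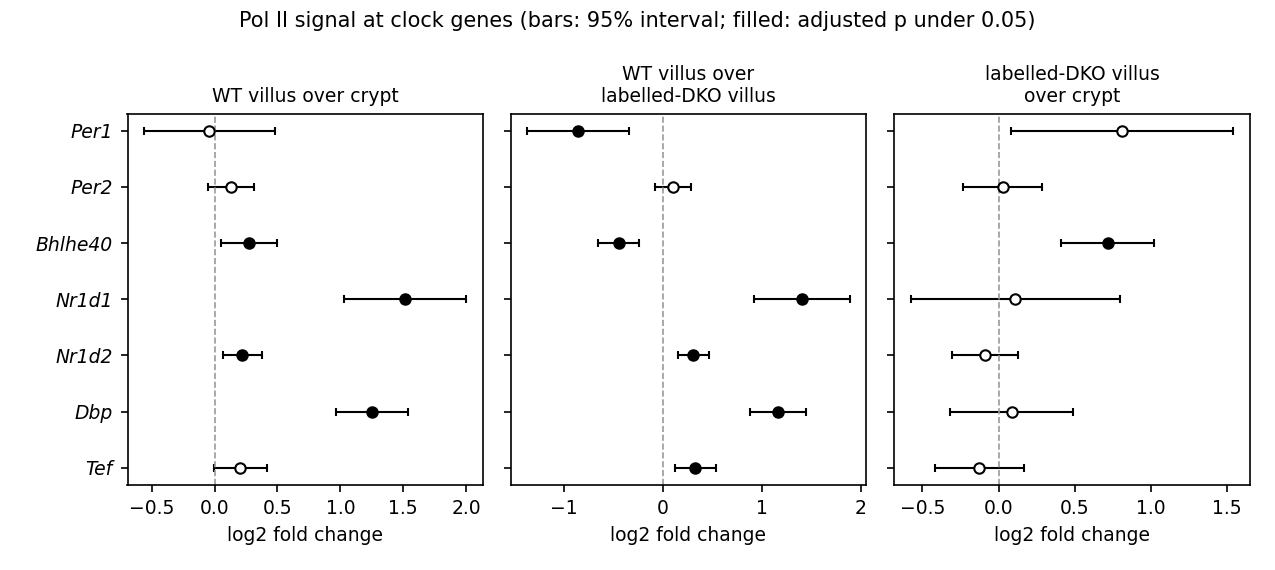
Log2 fold change of Pol II signal (horizontal axes) at the 7 clock genes in the tables, for 3 comparisons. Points are fold changes from the authors' deposited tables (left, middle) or their difference (right), bars are 95% intervals and filled points had an adjusted p under 0.05. Nr1d1 and Dbp lie farthest to the right in the left and middle panels and near 0 in the right panel, while Per1 and Bhlhe40 lie left of 0 in the middle panel.

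The REV-ERB receptors are nuclear receptors that repress their targets when bound to heme. Nr1d1 lies on the reverse strand of chromosome 11, with windows from 98628746 to 98637041 in the authors' mm9 coordinates. Its rebuilt mean was 247 normalised counts in crypt, 706 in WT villus and 266 in labelled-DKO villus. WT villus was the high group, and the other groups were nearly level. The authors' deposited log2 fold change of villus over crypt was 1.52 ± 0.25 (DESeq2 adjusted p 1.97e-08), a 2.86-fold difference with a 95% interval of 2.04 to 4.01. A higher value there was held by 62 of the 6429 genes. For WT over labelled-DKO villus it was 1.41 ± 0.25 (DESeq2 adjusted p 1.04e-07), a 2.65-fold difference with an interval of 1.89 to 3.71, and 218 genes had a higher value.

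Nr1d2 encodes the second REV-ERB receptor and lies on the reverse strand of chromosome 14, with windows from 19036070 to 19071970. The rebuilt mean was 251 normalised counts in crypt, 292 in WT villus and 236 in labelled-DKO villus. The order of villus groups was that of Nr1d1, with smaller differences. The authors' deposited log2 fold changes were 0.22 ± 0.08 over crypt (DESeq2 adjusted p 0.0181) and 0.31 ± 0.08 over labelled-DKO villus (adjusted p 0.000288). The 95% intervals of Nr1d2, 0.065 to 0.378 over crypt and 0.156 to 0.464 over labelled-DKO villus, did not overlap those of Nr1d1, 1.03 to 2.00 and 0.920 to 1.89. The villus-crypt call at Nr1d2 was lost when the counting noise was raised to that of 3 libraries per group, with an adjusted p of 0.0757.

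The REV-ERB promoters are shown because the paralogues changed by such different amounts. Sequences are from RefSeq, build GRCm38.p6, 250 bases before to 50 after the start site, and read 5′ to 3′ on the gene's strand. Capitals mark matches, on either strand, to any of 6 motifs: the E-box CACGTG, the related E-box form CACGTT, the D-box core TTATGNAA, the half-site AGGTCA bound by ROR and REV-ERB receptors, the cyclic AMP response element TGACGTCA and a core CAAAGTCCA bound by HNF4. Of 32851 promoters of this length, 7.15% held CACGTG, 4.68% CACGTT, 3.38% TTATGNAA, 16.3% AGGTCA, 1.79% TGACGTCA and 0.475% CAAAGTCCA. The Nr1d1 window, chr11:98775328-98775627 on the reverse strand, held 1 match, AACGTG at -28 from the start site, which is CACGTT on the other strand. The Nr1d2 window, chr14:18239057-18239356 on the reverse strand, held AGGTCA at -77.
Nr1d1: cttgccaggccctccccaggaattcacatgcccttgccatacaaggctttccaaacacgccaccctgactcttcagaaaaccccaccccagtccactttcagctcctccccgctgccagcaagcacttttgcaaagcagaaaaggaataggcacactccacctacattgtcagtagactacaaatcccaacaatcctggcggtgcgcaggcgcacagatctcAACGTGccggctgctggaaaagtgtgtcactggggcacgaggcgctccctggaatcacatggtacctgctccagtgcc
Nr1d2: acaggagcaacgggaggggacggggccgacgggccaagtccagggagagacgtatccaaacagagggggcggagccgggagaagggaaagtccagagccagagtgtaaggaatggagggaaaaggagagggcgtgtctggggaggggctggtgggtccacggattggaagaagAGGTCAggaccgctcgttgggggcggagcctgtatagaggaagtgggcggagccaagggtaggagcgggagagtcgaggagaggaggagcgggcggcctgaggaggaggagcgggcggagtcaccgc
These matches describe the letters in the windows, and binding was not measured.

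Dbp and Tef encode the PAR bZIP factors that act on D-boxes, and Dbp is a direct E-box target with one of the widest daily swings among clock outputs. Dbp lies on the forward strand of chromosome 7, with windows from 52960517 to 52965073. Its rebuilt means were 103 normalised counts in crypt, 246 in WT villus and 109 in labelled-DKO villus. As at Nr1d1, WT villus stood above both other groups. The authors' deposited log2 fold change was 1.25 ± 0.15 over crypt (DESeq2 adjusted p 6.35e-16), a 2.38-fold difference with an interval of 1.95 to 2.91. Over labelled-DKO villus it was 1.17 ± 0.14 (DESeq2 adjusted p 7.79e-15), a 2.24-fold difference with an interval of 1.85 to 2.73. Values higher than that of Dbp were held by 121 genes over crypt and 305 over labelled-DKO villus. The intervals of Dbp and Nr1d1 overlapped in both comparisons.

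Tef lies on the forward strand of chromosome 15, with windows from 81633003 to 81656793 and 2 transcripts that start apart. Pol II there had rebuilt means of 109 normalised counts in crypt, 126 in WT villus and 99.9 in labelled-DKO villus. The authors' deposited log2 fold change over crypt was 0.20 ± 0.11 and did not pass the threshold (DESeq2 adjusted p 0.118, interval -0.0039 to 0.414). Over labelled-DKO villus it was 0.33 ± 0.10 (adjusted p 0.00427), a 1.26-fold difference. The Wald adjusted p was 0.0393 when counting noise was raised to that of 3 libraries per group. The intervals of Tef, whose upper ends were 0.414 and 0.535, lay below those of Dbp, whose lower ends were 0.966 and 0.884. In the pair of fold changes Tef sat 0.026 log2 units from Nr1d2, the shortest distance between any of the 7 genes, and Dbp sat 0.356 from Nr1d1.

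The Dbp promoter is shown because this gene moved with Nr1d1. The window, chr7:45704997-45705296 on the forward strand, held none of the 6 motifs, so the sequence has no capitals.
Dbp: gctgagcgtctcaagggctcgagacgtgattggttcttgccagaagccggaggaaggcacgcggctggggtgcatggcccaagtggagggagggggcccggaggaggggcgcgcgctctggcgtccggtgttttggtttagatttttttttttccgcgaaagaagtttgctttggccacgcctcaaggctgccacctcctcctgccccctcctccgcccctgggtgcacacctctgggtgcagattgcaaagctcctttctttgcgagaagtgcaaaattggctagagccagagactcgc
Both Tef promoters in the same table held 1 CACGTG, at -127 in the window from 81802423 to 81802722 and at -138 in the window from 81811164 to 81811463 on chromosome 15 of GRCm38.p6. CAAAGTCCA was in none of the 10 promoter entries of the 8 clock genes matched by symbol. Per2 and Bhlhe40 were not matched.

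**Figure D2:**
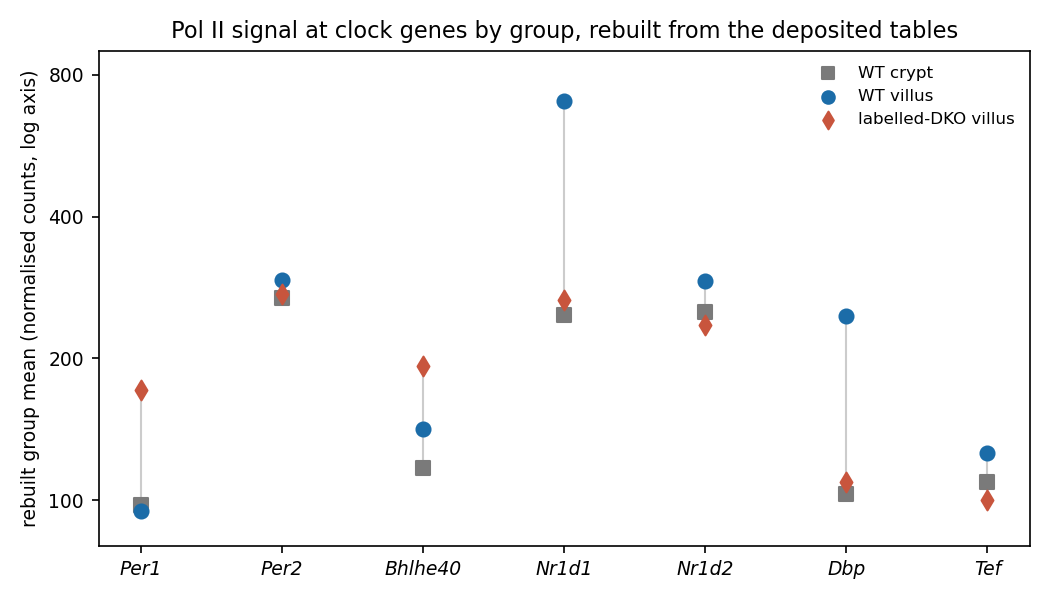
Rebuilt mean Pol II signal (normalised counts, log axis) of each clock gene in WT crypt, WT villus and labelled-DKO villus, 1 point per group, joined by a line that spans the 3 groups. Levels are to be read within a gene. WT villus stands apart at Nr1d1 (706 against 247 and 266) and Dbp (246 against 103 and 109), and labelled-DKO villus is the high group at Per1 and Bhlhe40.

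Nr1d1 and Dbp each run into a neighbour on the opposite strand, and read pairs were counted in every window they overlapped, with no strand option in the recorded command. The gene body window of Dbp shared 741 of its 4107 bp with those of Sphk2, the sphingosine kinase 2 gene. Sphk2 had log2 fold changes of 1.19 ± 0.15 over crypt and 1.32 ± 0.15 over labelled-DKO villus in the authors' deposited tables. The gene body window of Nr1d1 shared 1075 of its 8296 bp with a transcript of Thra, the gene of thyroid hormone receptor alpha. Thra had log2 fold changes of 0.74 ± 0.16 and 1.06 ± 0.16 in the same tables. Both neighbours thus moved in the direction of the clock gene they overlap, and the part of shared reads was not tested. Promoter windows of Dbp and Nr1d1 overlapped no window of another gene. The promoter window of Bhlhe40 lay wholly inside a window of the antisense transcript 0610040F04Rik, and that of 1 Tef transcript shared 391 of 402 bp with Gm17597. Neither of these 2 transcripts was in the tables. Per1, Per2 and Nr1d2 had no such overlap. The windows also differed by strand. On the reverse strand the gene body windows of Nr1d1, Nr1d2, Per2, Per3, Cry1 and Cry2 contained the promoter window, while those of the forward-strand genes Dbp, Tef, Per1 and Bhlhe40 did not. Which window the deposited tables used is not stated.

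**Figure D3:**
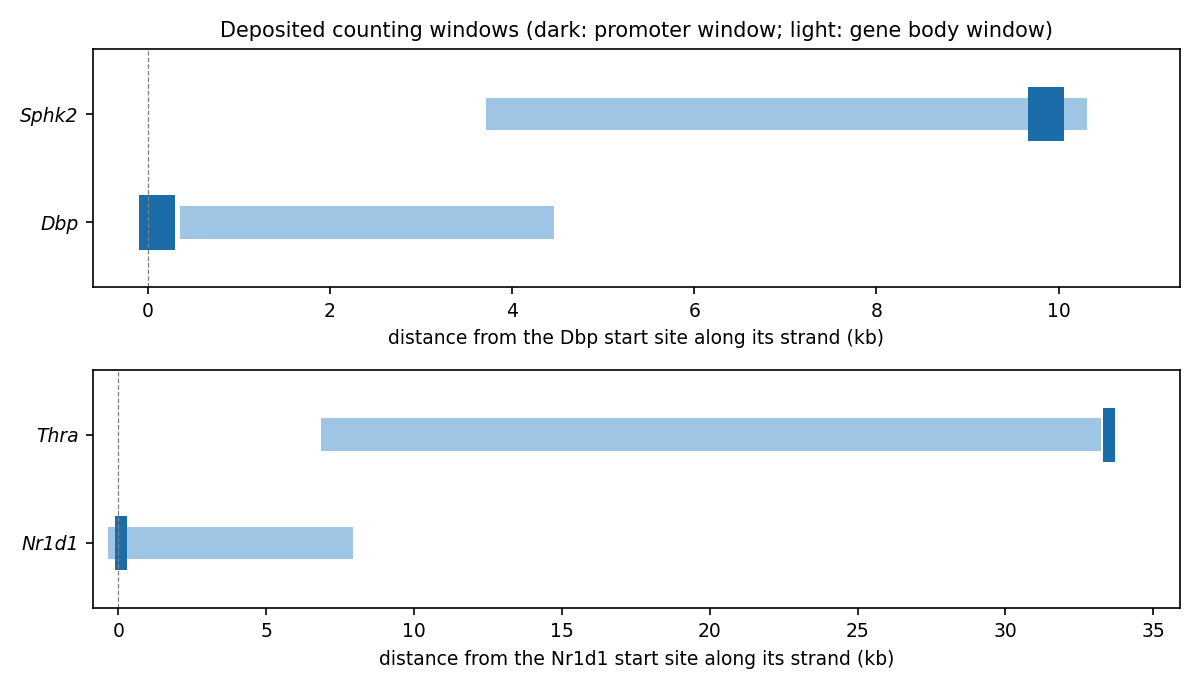
Counting windows of Dbp with Sphk2 and of Nr1d1 with Thra, by distance in kb from the start site of the clock gene along its strand (horizontal axis). Dark bars are promoter windows of 402 bp and light bars gene body windows. The light bars overlap by 741 bp in the upper panel and 1075 bp in the lower, and the Nr1d1 body window covers its promoter window.

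The Period genes encode the PER proteins of the repressor complex. Per1 is in addition an immediate responder to glucocorticoid and cyclic AMP signals. Per1 lies on the forward strand of chromosome 11, with windows from 68912351 to 68922959 over 2 transcripts. Its rebuilt means were 97.7 normalised counts in crypt, 94.8 in WT villus and 171 in labelled-DKO villus. Labelled-DKO villus was the high group, and the WT groups lay close together. In the authors' deposited table WT stood at -0.86 ± 0.26 relative to labelled-DKO villus on the log2 scale (DESeq2 adjusted p 0.00306), a 1.81-fold higher signal in labelled-DKO villus, and 235 of 6429 genes had a lower value. Over crypt it was -0.04 ± 0.27 (adjusted p 0.921, interval -0.564 to 0.477). The standard errors of Per1 were the largest among the 7 genes.

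Per2, on the reverse strand of chromosome 1 with windows from 93312059 to 93356255, passed the threshold in no comparison. Rebuilt means at Per2 were 269 normalised counts in crypt, 294 in WT villus and 274 in labelled-DKO villus. The authors' deposited log2 fold changes were 0.13 ± 0.09 over crypt and 0.10 ± 0.09 over labelled-DKO villus (DESeq2 adjusted p 0.292 and 0.360). The intervals, -0.056 to 0.314 and -0.080 to 0.285, hold no difference beyond 1.24-fold higher in WT villus over crypt or 1.22-fold higher over labelled-DKO villus. Between the genotypes the interval of Per2 lay above that of Per1, -1.37 to -0.342.

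The first Per1 promoter is shown because it held 3 of the motifs. The window, chr11:69098699-69098998 on the forward strand, held CACGTG at -166, AGGTCA on the other strand (TGACCT) at -137, and TTATGCAA, a form of the D-box core, at -24.
Per1: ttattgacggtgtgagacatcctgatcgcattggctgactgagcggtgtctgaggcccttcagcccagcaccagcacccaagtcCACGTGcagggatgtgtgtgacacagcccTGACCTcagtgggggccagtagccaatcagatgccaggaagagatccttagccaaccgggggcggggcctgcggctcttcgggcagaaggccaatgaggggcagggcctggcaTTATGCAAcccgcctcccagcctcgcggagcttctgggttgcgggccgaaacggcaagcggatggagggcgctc
The window of the second Per1 start, from 69099902 to 69100201, held none of the 6.

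Bhlhe40, also called Dec1, encodes a repressor that competes for E-boxes and that hypoxia, serum and cytokines induce in many cells. It lies on the forward strand of chromosome 6, with windows from 108610523 to 108616419. Its rebuilt means were 117 normalised counts in crypt, 142 in WT villus and 193 in labelled-DKO villus, so the villus groups stood above crypt, with labelled-DKO villus highest. The authors' deposited log2 fold change over crypt was 0.27 ± 0.11 (DESeq2 adjusted p 0.0438), close to the threshold, and an adjusted p of 0.135 followed when counting noise was raised to that of 3 libraries per group. WT over labelled-DKO villus was -0.44 ± 0.11 (adjusted p 0.000132, interval -0.653 to -0.235), so the signal was higher in labelled-DKO villus.

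Labelled-DKO villus was then set against WT crypt, as the difference of the 2 deposited fold changes with the largest standard error it can have if libraries are independent. Of the 7 clock genes 1 was called, against 13.6% of all genes, so the count is near the background. It was Bhlhe40, higher in labelled-DKO villus by 0.72 ± 0.16 (Wald adjusted p 0.000115), a 1.65-fold difference, and 6.41% of all genes rose in this direction while 7.19% fell. Per1 was at 0.81 ± 0.37 (Wald adjusted p 0.143), and passed with 0.00922 when the standard error was rebuilt from the shared dispersion. Nr1d1 was at 0.11 ± 0.35 and Dbp at 0.09 ± 0.21 (Wald adjusted p 0.907 and 0.872). The 95% intervals of labelled-DKO villus over crypt ran from 0.670 to 1.74-fold for Nr1d1 and from 0.804 to 1.40-fold for Dbp. The upper ends lie below the 2.86-fold and 2.38-fold differences of these genes between WT villus and crypt, whose own intervals were 2.04 to 4.01 and 1.95 to 2.91. Because the third comparison is a difference of the other 2, this restates the WT over labelled-DKO fold changes and adds no support of its own. Nr1d2 was at -0.09 ± 0.11, Tef at -0.13 ± 0.15 and Per2 at 0.03 ± 0.13, with Wald adjusted p-values of 0.724, 0.706 and 0.945.

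**Figure D4:**
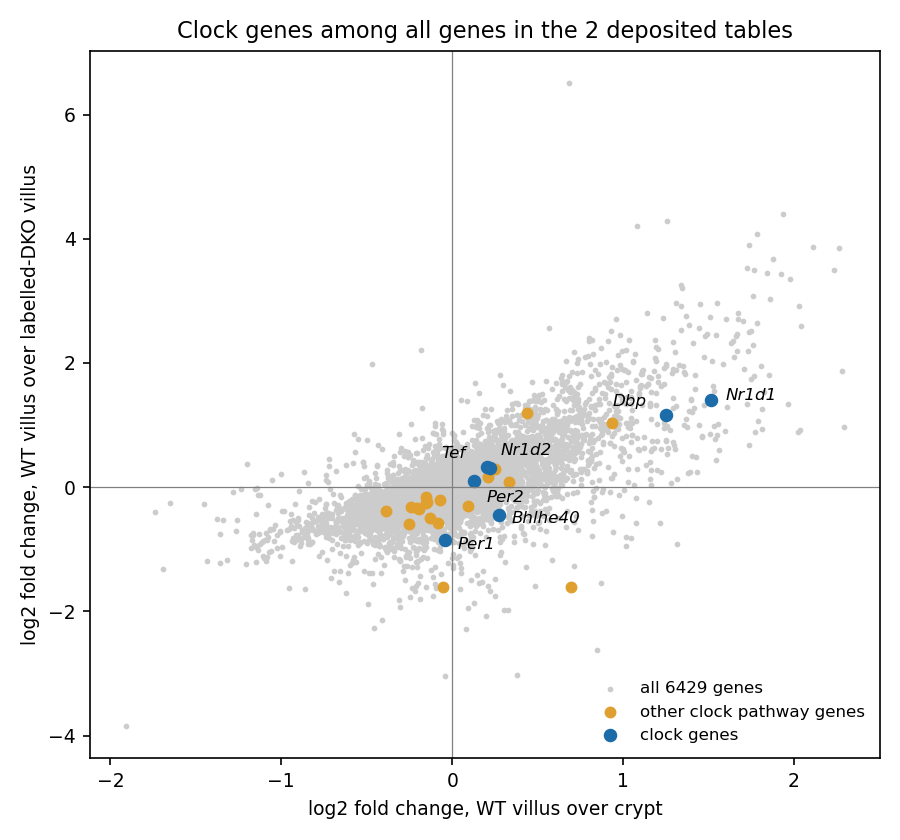
Log2 fold change of WT villus over crypt (horizontal) against that of WT villus over labelled-DKO villus (vertical) for all 6429 genes (grey), the 7 clock genes (blue) and 19 other clock pathway genes (orange). The axes share the WT villus libraries, so the cloud slopes upward in part by construction. Nr1d1 and Dbp lie at the upper right, Per1 and Bhlhe40 below the horizontal line, and Per2, Tef and Nr1d2 close together above it.

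The other genes of the clock pathway followed a list of 34, of which 19 were in the tables. The authors' deposited tables called 6 of the 19 between villus and crypt, 3 in each direction. After centring 4 were higher and 1 lower in villus, and 3 and 1 with an adjusted p under 0.01 or with raised counting noise. The balance was 3 higher and 4 lower among the 17 genes with a mean signal of at least 100. It was the same among the 13 genes without an overlapping window. Between the villus groups 11 of the 19 were called, of which WT was the higher group at 2 and labelled-DKO at 9. The medians of the 19 in the 2 comparisons were -0.08 and -0.30 on the log2 scale, against -0.04 and -0.08 for all genes. The background shares are those given above. Of the activators Npas2 alone was in the tables, at -0.07 ± 0.10 and -0.20 ± 0.10 (DESeq2 adjusted p 0.625 and 0.0840). Clock and Arntl were not. In labelled-DKO villus over crypt 3 of the 19 were called, against 13.6% of all genes: Klf10 and Sgk1 higher and Usp2 lower. The repressor Ciart was at -0.15 ± 0.20 and -0.25 ± 0.19 in the same comparisons and was not called.

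Of 11 genes that modify PER and CRY proteins 7 were in the tables. Usp2, a deubiquitinase that is itself under clock control, was higher in WT villus than in both other groups in the authors' deposited tables, by 0.44 ± 0.13 over crypt and 1.19 ± 0.13 over labelled-DKO villus (DESeq2 adjusted p 0.00349 and 1.57e-17). Its rebuilt means were 152 normalised counts in crypt, 205 in WT villus and 90.1 in labelled-DKO villus. Usp2 was also called lower in labelled-DKO villus than crypt, at -0.75 ± 0.19 (Wald adjusted p 0.00118). The kinase genes Csnk1a1, Csnk2a1 and Gsk3b had less Pol II in WT than in labelled-DKO villus, at -0.58 ± 0.18, -0.33 ± 0.10 and -0.59 ± 0.13, and Csnk2a1 was also higher in crypt than villus, at -0.24 ± 0.10. Csnk2a1 between villus and crypt was not called after centring.

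Of 5 cofactors and REV-ERB corepressors 4 were in the tables. At 3 of them the authors' deposited table called more Pol II where DKO was the label, against 29.5% of all genes. The acetyltransferase genes Crebbp and Ep300 were at -0.39 ± 0.08 and -0.36 ± 0.08, and Hdac3, the deacetylase recruited by REV-ERB, at -0.34 ± 0.08. Crebbp and Hdac3 were also called higher in crypt than villus, at -0.39 ± 0.08 and -0.21 ± 0.08, and Hdac3 was not called there after centring. Of 6 outputs 5 were in the tables. Klf10 and Klf9, Krüppel-like factors with daily rhythms, had more signal in villi labelled DKO than in WT, at -1.61 ± 0.19 and -0.49 ± 0.11. Sgk1, a kinase induced by corticosteroids, was at -1.61 ± 0.48. Over crypt, labelled-DKO villus stood at 1.56 ± 0.28 at Klf10 and 2.30 ± 0.67 at Sgk1 (Wald adjusted p 1.07e-06 and 0.00770). Tsc22d3, a glucocorticoid-induced gene, moved with Nr1d1 and Dbp instead, at 0.94 ± 0.22 over crypt and 1.04 ± 0.22 over labelled-DKO villus.

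**Figure D5:**
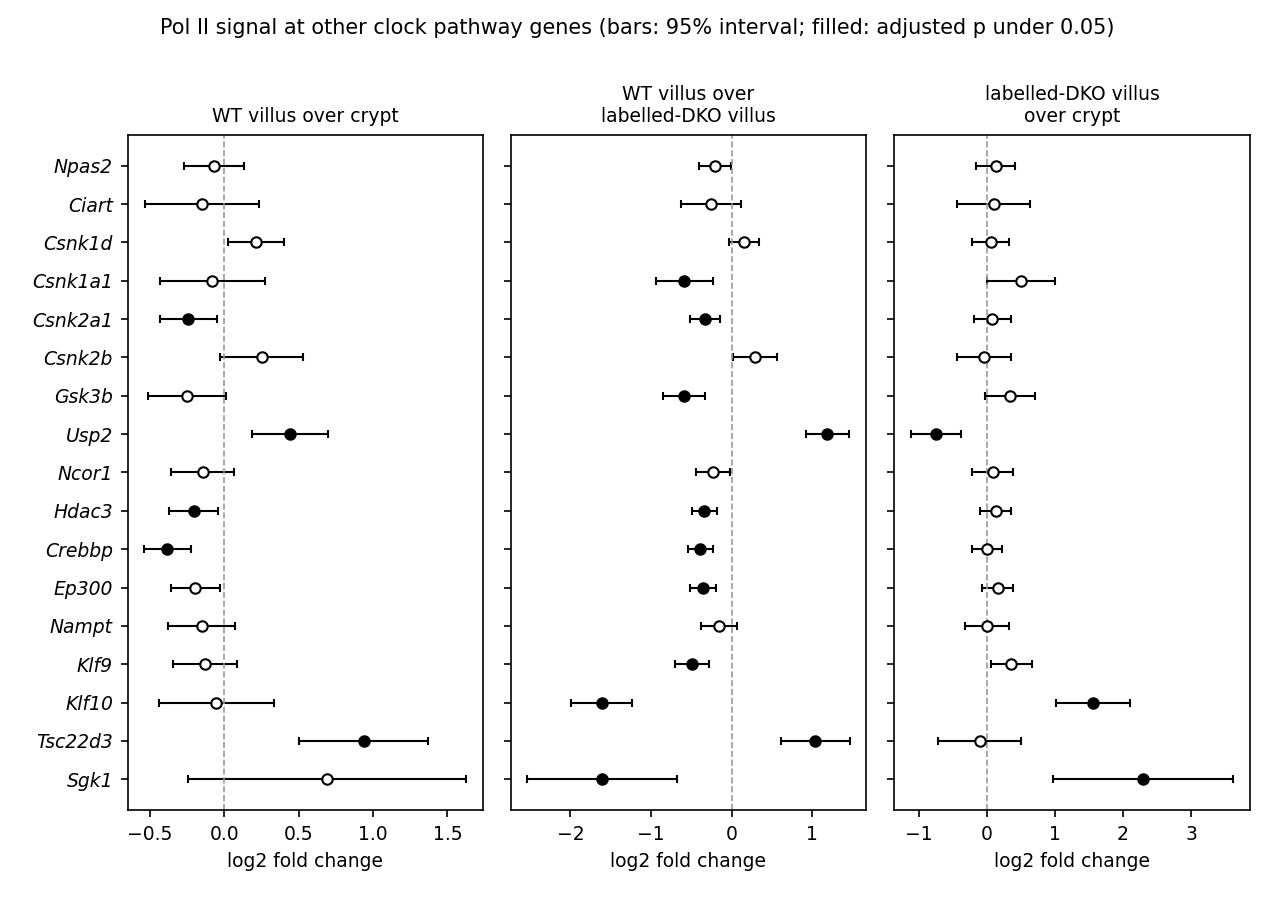
Log2 fold change of Pol II signal (horizontal axes) at 17 of the 19 other clock pathway genes in the tables, in the same 3 comparisons. Bars are 95% intervals and filled points had an adjusted p under 0.05. Usp2 and Tsc22d3 lie right of 0 and Klf10 and Sgk1 farthest left of 0 in the middle panel.

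Other gene groups were set beside the clock genes, and their directions differed. The authors' deposited tables placed 9 of 9 enterocyte markers above both other groups in WT villus, all of them called, with medians of 1.55 and 2.38 on the log2 scale. Their summed rebuilt mean was 3794 normalised counts in crypt, 9739 in WT villus and 3652 in labelled-DKO villus. WT villus was thus the high group for these markers, as it was for Nr1d1 and Dbp. In labelled-DKO villus over crypt the median marker was at -0.77 on the log2 scale, with a range of -1.76 to 0.94 and 1 marker called in each direction, against 0.11 at Nr1d1 and 0.09 at Dbp. Of 12 serum- and stress-inducible genes 10 were in the tables, of which 9 were called higher in villus than crypt. All 10 had log2 fold changes above 0 there, and 18.6% of all genes were called higher. Between the villus groups WT was called higher at 7 and lower at 1, against 22.4% and 29.5% of all genes. The medians of the 2 comparisons were 1.27 and 0.81. The summed rebuilt mean of these genes was 1788 in crypt, 5107 in WT villus and 2640 in labelled-DKO villus. Of 8 glucocorticoid-responsive genes, which include Tsc22d3, Sgk1 and Klf9, 6 were in the tables. From crypt to villus 4 were called higher, against 18.6% of all genes. Between the villus groups WT was called higher at 2 and lower at 3, against 22.4% and 29.5% of all genes. The medians of the 2 comparisons were 0.90 and -0.22 on the log2 scale. The sums in crypt, WT villus and labelled-DKO villus were 776, 1313 and 1916, of which Sgk1 alone gave 123, 199 and 606. Immune markers in the tables numbered 3 of 8, with sums of 227, 307 and 210. The call among them, Cd74, which enterocytes can also express, was called higher in WT villus in both comparisons. The other 2 were called in neither. The median of the 3 was 0.19 over crypt and -0.09 over labelled-DKO villus on the log2 scale. Goblet, Paneth, endocrine and tuft cell markers numbered 4 of 8, with sums of 635, 937 and 913 that hide opposite directions. Over crypt 2 were called higher in villus and 1 lower, against 18.6% and 18.8% of all genes, with log2 fold changes from -0.72 to 0.93. Between the villus groups 1 was called lower in WT and 0 higher, against 29.5% and 22.4%, with a range of -0.81 to 0.17. The 2 crypt markers had sums of 407, 268 and 363. The part of these groups in the clock gene results was not tested. A change in the number of cells of a type and a change in Pol II per cell cannot be told apart in these bulk samples.

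Among the 1983 other genes with a mean signal within 2-fold of that of Nr1d1, the 3 nearest to it in the pair of deposited fold changes were Jun, Rogdi and Slc28a2. Jun, an immediate early transcription factor gene, lay 0.089 log2 units away, at 1.47 ± 0.19 over crypt and 1.33 ± 0.18 over labelled-DKO villus in the authors' deposited tables. Rogdi lay 0.119 away, and its windows overlap another gene. Slc28a2, a nucleoside transporter gene, lay 0.149 away. This likeness rests on 3 groups only.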

How the data were processed

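Pol II ChIP-seq was deposited for 9 libraries with 3 inputs. Per the submitters' processing notes the build was mm9, and the tools listed, with no order, include Bowtie2 2.2.6, SAMtools 0.1.19, Picard and DESeq2 1.36.0. Per the file headers the authors counted read pairs with featureCounts 2.0.3 at a mapping quality of at least 30, ignoring duplicates. From those 2 files only window positions and lengths were used, because the 18 columns of counts have no names, so depth per library was not analysed here and the planned edgeR, pausing and per-library tests were not run. The authors deposited, for 6429 genes, the mean signal over libraries after division by size factors. Beside it the authors deposited each log2 fold change with its error, the Wald score and raw and adjusted p-values. Mean signals were equal in both tables, from 13.1 to 6634 with a median of 144. The Wald score equalled fold change over standard error to within 1.78e-07.

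Signs follow the table names. As a check on direction, how far the squared errors differ from 1 table to the other followed the inverse group means rebuilt with these signs with r = 0.881 across genes, against 0.680 with the first reversed and below 0 with the second or both reversed. In size, the counting noise of 3 libraries explained less than nothing of that difference under every choice of signs (-159% of its sum of squares as named, the nearest to 0), so the check rests on the correlation alone. Genes are not independent replicates. The third comparison used 2-sided normal p-values adjusted by Benjamini-Hochberg over all genes. It was also run on simulated counts with known dispersion and the full counting noise of 3 libraries. The deposited errors imply less counting noise, so that run does not show how the p-values behave here. Intervals are 1.96 standard errors. Transcripts were matched to symbols through RefSeq GRCm38.p6 names (96.8% of promoter windows). Calculations used Python 3.11.15, pandas 2.3.3 and SciPy 1.17.1.

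The members and all lists were chosen with earlier results of these data known. Named were all 10 clock genes, pathway genes called in either table and, chosen after their values were seen, Npas2, Ciart and Cd74, genes overlapping a clock gene's windows, and the 3 genes nearest the clock gene with the largest change. Some genes of the pathway list are not reported here. Alternatives were a stricter p, a size limit, a null of changes up to 0.5, centring, a mean signal of at least 100, and, chosen after seeing the data, genes without overlap and raised counting noise.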

Additional observations from a re-analysis of the deposited data

How the results depend on the processing

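Nr1d1 and Dbp alone kept their calls in both deposited comparisons when a larger change was required. An adjusted p under 0.01 left 2 clock genes (Nr1d1 and Dbp) called from crypt to villus, against 27% of all genes. Between WT and labelled-DKO villus it kept all 6 calls, against 40.9% of all genes. With a log2 fold change beyond 1 the clock genes called were 2 in villus over crypt (4.43% of all genes), 2 in WT over labelled-DKO villus (8.69%) and 0 in labelled-DKO villus over crypt (3.47%; 0 also at an unadjusted Wald p under 0.05). Against changes up to 0.5 they were again 2 (3.92%), 2 (9.91%) and 0 (1.4%; 0 unadjusted). Counting noise raised to 3 libraries left 2 from crypt to villus (29.2%) and all 6 between WT and labelled-DKO villus (43.7%). Of the 3 clock genes without an overlapping window, 1, 2 and 0 were called in the same order, against 39.3%, 54.5% and 17.4% of genes (1 unadjusted in the last). The standard error rebuilt from the shared dispersion gave 2 in labelled-DKO villus over crypt (28.8%).

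For the 19 pathway genes, the limit of 1 gave 0 (0 unadjusted) in villus over crypt, against 4.43% of all genes, and 4 between genotypes, against 8.69%. The null of 0.5 gave 0 (1 unadjusted; 3.92% of all genes), 2 (9.91%) and, for labelled-DKO villus over crypt, 1 (1.4%). In the last comparison the rebuilt standard error gave 7, against 28.8%. Crebbp in that comparison changed sign on centring, from 0.0022 to -0.00049, inside its error. The causes were not tested.

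No paired analysis was possible because neither table holds values by library and the count columns lack names. Leaving out replicates, other normalizations, filters on counts, edgeR and pausing ratios were not run, so the loss of 1 library was not examined.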

Other observations

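In the deposited gene body windows, all 21190 transcripts on the reverse strand had a window that contained their own promoter window and reached 250 bp upstream of it. Of 19858 forward-strand transcripts 0 did. A ratio of promoter to gene body counts from these windows would therefore not mean the same on the 2 strands. Among the clock genes this concerns Nr1d1, Nr1d2, Per2, Per3, Cry1 and Cry2.

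The deposited standard error was below the counting noise that 3 libraries per group would have at the rebuilt means for 933 genes (14.5%) between villus and crypt and for 1127 genes (17.5%) between WT and labelled-DKO villus. Tef was the single clock gene among them, in both comparisons. The number of libraries in the authors' fit is not stated. With counting noise raised to that of 3 libraries, Tef between the genotypes kept its call, with a Wald adjusted p of 0.0393, close to the threshold.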
